A study of Mus musculus with 13 samples.

Results

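Cathepsins are proteases that work mostly in the lysosome, and the vacuolar proton pump is the multi-subunit ATPase that acidifies that compartment. The genes described here are the 22 cathepsin genes and 20 pump subunit genes measured on the arrays, 42 of 18193 genes. They were chosen by symbol, among probe sets that name 1 gene and with earlier results of these data known. The symbols were the letters Cts followed by 1 more letter or digit, or any symbol starting with Atp6v. Where several probe sets name a gene, the brightest on average over all 13 arrays was used. All 42 symbols are the same in RefSeq. Atp6v0c, Atp6v1g3 and Atp6v1fnb also fit the symbols and were not analysed here.

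RNA from 13 mouse samples of the mixed strain background B6/129 was measured, with 1 one-colour array each. Tumours came from the livers of mir-122 knockout mice, 3 at 11 months and 5 at 14 months, and control livers from wild type mice, 2 at 11 months and 3 at 14 months. mir-122 encodes a microRNA abundant in hepatocytes, and the labels give no promoter or Cre line for the knockout. Tumour-free knockout liver was not analysed here, so genotype and tumour cannot be told apart, and in whole tissue a change in cell make-up and a change in RNA per cell cannot be told apart either. Whether each tumour came from its own mouse is not stated, so the p-values measure the spread between these samples, which may be technical in part.

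Cathepsins are made as inactive precursors, carried to the lysosome by mannose 6-phosphate receptors and activated at low pH. Most are cysteine proteases (such as B, L, S, C, H, K, Z), while D and E are aspartic proteases and A and G serine proteases. The pump has a membrane sector, V0, through which protons pass, and a cytosolic sector, V1, which hydrolyses ATP. Many lysosomal genes carry an E-box like site in their promoters that is bound by TFEB and TFE3, and the cystatins inhibit cysteine cathepsins. Cathepsin S, and in part other cathepsins, are well known from macrophages and other antigen-presenting cells, while a cluster of rodent cathepsins (Cts3, Cts6, Cts7, Cts8, Ctsj, Ctsm, Ctsq and Ctsr) is known from the placenta.

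Promoters are shown because genes of the lysosome are known to share the E-box like site, and the members moved in both directions. RefSeq promoters of 300 bases, from 250 before to 50 after the gene start, were matched by symbol to 32 of the 42 members, with 34 promoters (build GRCm38.p6). Members without a matched promoter were not searched, and among them were Ctsb, Atp6v1b2 and Atp6v0a2, all called higher in tumours. The letters TCACGTGA, which read the same on both strands, were found in 5 of these 34 promoters, those of Ctsa, Ctsd, Atp6v0d1, Atp6v0e and Atp6v1a, and in 0.974% of all 32851 promoters of this length. The shorter core CACGTG, which lies within it, was in 8 of 34 and in 7.15% of all promoters. The palindromic TFEB site of 10 bases, which holds both, was in 0 of 34 and in 0.326%. Common promoter motifs were searched on both strands as well: TATAAA was in 17.6% of the members' promoters and 13.6% of all, GGGCGG in 47.1% and 35.7%, and CCAAT in 38.2% and 37.4%. Of the 5 genes with TCACGTGA, Ctsd, Atp6v0e and Atp6v1a rose in tumours, Atp6v0d1 fell and Ctsa was not past the threshold. The core lies before the gene start in Ctsd and Atp6v1a, across it in Atp6v0d1, after it in Atp6v0e, and once before and once after it in Ctsa. Capitals mark TCACGTGA and CACGTG. The 6 promoters printed are these 5 and that of Ctss, the cathepsin with the largest rise, which has neither. Ctsa has another matched promoter, at chr2:164832622-164832921 (plus strand), which has neither and is not printed. Ctsd lies at chr7:142387778-142388077 (minus strand), Ctsa at chr2:164833523-164833822 (plus strand), Atp6v0e at chr17:26676146-26676445 (plus strand), Atp6v1a at chr16:44139210-44139509 (minus strand), Atp6v0d1 at chr8:105566015-105566314 (minus strand) and Ctss at chr3:95526536-95526835 (plus strand), each printed 5′ to 3′ along its gene.
Ctsd: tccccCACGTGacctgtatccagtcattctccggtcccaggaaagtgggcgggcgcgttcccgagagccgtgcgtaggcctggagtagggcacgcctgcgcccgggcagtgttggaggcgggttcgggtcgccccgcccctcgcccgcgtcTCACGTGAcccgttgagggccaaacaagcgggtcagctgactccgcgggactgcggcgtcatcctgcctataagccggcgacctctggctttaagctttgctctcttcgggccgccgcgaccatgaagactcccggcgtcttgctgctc
Ctsa: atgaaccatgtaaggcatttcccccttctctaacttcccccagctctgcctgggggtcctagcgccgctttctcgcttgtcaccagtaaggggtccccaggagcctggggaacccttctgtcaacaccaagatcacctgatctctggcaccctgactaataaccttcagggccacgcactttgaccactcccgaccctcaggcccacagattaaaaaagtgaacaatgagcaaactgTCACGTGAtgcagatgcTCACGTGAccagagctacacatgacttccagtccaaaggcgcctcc
Atp6v0e: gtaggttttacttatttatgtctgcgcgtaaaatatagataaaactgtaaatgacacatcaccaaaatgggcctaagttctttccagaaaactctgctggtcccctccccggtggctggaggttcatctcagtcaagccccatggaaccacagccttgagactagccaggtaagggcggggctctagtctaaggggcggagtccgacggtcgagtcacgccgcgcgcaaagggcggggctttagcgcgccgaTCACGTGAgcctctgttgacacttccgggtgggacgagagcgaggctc
Atp6v1a: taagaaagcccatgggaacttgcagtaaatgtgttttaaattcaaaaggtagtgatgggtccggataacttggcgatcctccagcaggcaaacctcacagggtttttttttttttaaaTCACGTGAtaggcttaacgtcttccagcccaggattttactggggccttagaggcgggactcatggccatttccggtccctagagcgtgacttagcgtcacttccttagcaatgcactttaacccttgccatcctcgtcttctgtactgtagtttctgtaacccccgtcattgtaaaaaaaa
Atp6v0d1: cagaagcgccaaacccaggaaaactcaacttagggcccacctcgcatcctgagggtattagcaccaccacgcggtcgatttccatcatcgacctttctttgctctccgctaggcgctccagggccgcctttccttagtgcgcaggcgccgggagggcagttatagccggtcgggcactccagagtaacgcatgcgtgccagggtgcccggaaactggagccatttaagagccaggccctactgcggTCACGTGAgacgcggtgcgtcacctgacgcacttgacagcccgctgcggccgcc
Ctss: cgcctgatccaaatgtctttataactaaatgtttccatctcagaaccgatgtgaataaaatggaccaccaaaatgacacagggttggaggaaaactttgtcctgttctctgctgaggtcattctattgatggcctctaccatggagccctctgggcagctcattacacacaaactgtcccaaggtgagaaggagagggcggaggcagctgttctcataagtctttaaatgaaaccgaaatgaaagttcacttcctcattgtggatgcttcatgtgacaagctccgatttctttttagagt

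All levels are log2 values that the authors normalised with RMA, so a difference of 1 is a doubling, and the number of arrays limits the precision. Arrays are named by group and a replicate number that follows accession order and pairs nothing. A pair of facts about the arrays comes before the results. On the first principal component of all probe sets, which held 49.5% of the variance, KO_tumor_11M replicates 1 and 2 and KO_tumor_14M replicate 4 lay between -17.8 and 1.6, apart from the other 5 tumours at 67.8 to 92.2, with controls at -79.4 to -64.5. A pair of controls labelled with different ages, control_liver_11M replicate 1 and control_liver_14M replicate 3, were nearly identical (r = 0.995 over all probe sets, the highest of any pair). Whether they share a source was not tested; if they do, the 5 controls hold 4 independent samples, and the standard errors and p-values that count all 5 may be too small. The results below are therefore also given without these arrays where a call changes.

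Tumours were compared with controls in a limma fit over all 18193 genes with both ages weighted equally, and a gene was called at a Benjamini-Hochberg adjusted p under 0.05. Of the 22 cathepsins, 4 were higher in tumours (Ctsb, Ctsc, Ctsd and Ctss), 1 was lower (Ctsg) and 17 were not past the threshold. Of the 20 pump subunits, 5 were higher (Atp6v0e, Atp6v1b2, Atp6v1e1, Atp6v1a and Atp6v0a2), 2 were lower (Atp6v0d1 and Atp6v1c2) and 13 were not past the threshold. Over all genes, 10.3% were called higher and 9.81% lower, against 18.2% and 4.55% of cathepsins and 25% and 10% of pump subunits. Among genes with a mean above the median level of all probe sets, 14.7% were higher and 11.4% lower. Of members with more than 1 array above that level, 30.8% of 13 cathepsins and 29.4% of 17 pump subunits were higher, and 0% and 5.88% lower. Whether the classes differ from either background was not tested. The median log2 fold change was 0.23 over the cathepsins, 0.08 over the pump subunits and -0.05 over all genes. All 8 tumours lay above all 5 controls for 3 cathepsins and 3 pump subunits, which held for 6.22% of all genes, and below them for 1 cathepsin, which held for 5.07% of all genes. With quantile normalisation repeated, the pump subunits called were 3 higher and 2 lower, and the cathepsins 4 and 1, while over all genes 1707 were higher and 2130 lower, against 1872 and 1785 without it. Without both nearly identical controls 2 cathepsins (Ctsb and Ctss) and 2 pump subunits (Atp6v0e and Atp6v1b2) were called, all 4 higher, among 1368 genes in all (3657 otherwise). Without the 3 tumours that stand apart, 8 cathepsins were higher (Ctsa, Ctsb, Ctsc, Ctsd, Ctsk, Ctsl, Ctss and Ctsz) and 1 lower (Ctsg), and 5 pump subunits were higher (Atp6v0b, Atp6v0e, Atp6v1b2, Atp6v1e1 and Atp6v1g1) and 0 lower. The count over all genes rose as well in that setting, to 3028 higher and 2439 lower. KO_tumor_14M replicates 1 and 2, whose titles end in T and T2, were the most alike of the tumour pairs (r = 0.987). Whether they share a mouse was not tested, and if they do, p-values that count both may be too small. With these 2 arrays averaged, 3 pump subunits were higher and 2 lower, and Atp6v1a and Atp6v1e1 were no longer called. The cathepsins called were the same, among 3367 genes in all.

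**Figure D1:**
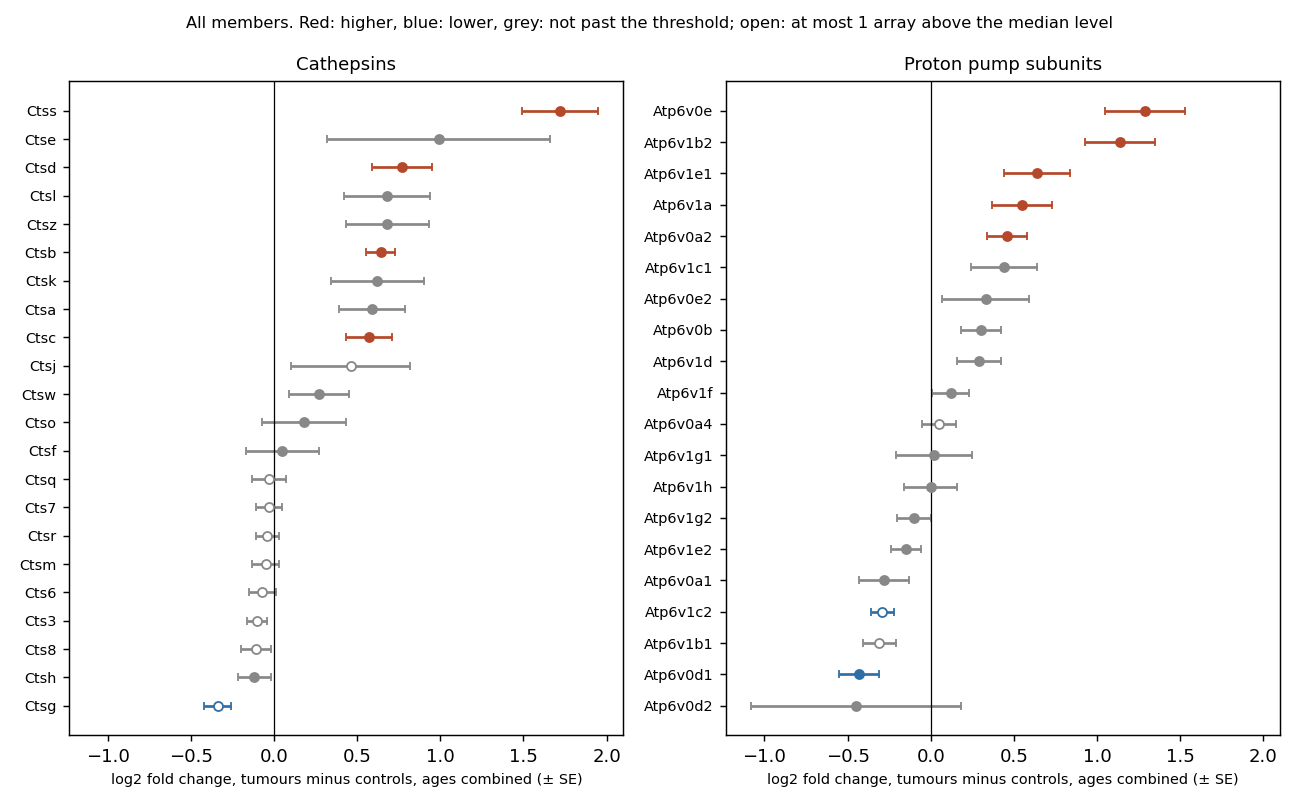
Log2 fold change of each of the 42 members, tumours minus controls with the ages combined, with bars of 1 standard error; cathepsins on the left, pump subunits on the right, red for higher, blue for lower, grey for not past the threshold, and open points for members with at most 1 array above the median level of all probe sets. Ctss at 1.72 and Atp6v0e at 1.29 lead the 2 classes, and the open points lie between -0.34 and 0.46.

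Ctss, the cysteine protease that trims the invariant chain in antigen-presenting cells, showed the largest rise of any member called. The control livers gave 9.77 and 9.02 at 11 months and 9.88, 9.36 and 9.78 at 14 months, against 10.51, 11.38 and 11.83 and 11.23, 11.12, 11.72, 11.28 and 10.92 in the tumours of these ages. Every tumour lay above every control, and KO_tumor_11M replicate 1 was the lowest of the tumours. The level was 11.25 ± 0.42 over the 8 tumours (mean ± SD) against 9.56 ± 0.36 over the 5 controls (log2 fold change 1.72 ± 0.23 SE, adjusted p = 0.00092), a 3.29-fold rise. This call, with the ages combined, held in each of the 25 settings in which single members were followed. Ctss has 1 probe set, so the settings on probe set choice left its levels unchanged. By age, the fit of all 4 groups gave 1.85 at 11 months (adjusted p = 0.0321) and 1.58 at 14 months (adjusted p = 0.00706). The call at 11 months was less stable: no member was called there with the arrays of that age fitted alone, without the nearly identical controls, or without any 1 of 6 arrays. These were control_liver_11M replicates 1 and 2, control_liver_14M replicates 1 and 3, KO_tumor_11M replicate 3 and KO_tumor_14M replicate 2.

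Ctsb, an abundant cysteine protease with both endo- and exopeptidase activity, rose by less but with little spread. Ctsb was measured at 12.25 and 12.25 in controls and 12.93, 12.43 and 12.93 in tumours at 11 months, and at 12.21, 12.11 and 12.15 and 12.94, 12.88, 12.96, 12.92 and 12.96 at 14 months. The groups did not overlap, and 7 of the 8 tumours lay within 12.88 to 12.96, with KO_tumor_11M replicate 2 below them. The mean was 12.87 ± 0.18 over the 8 tumours (mean ± SD) against 12.20 ± 0.06 over the 5 controls (log2 fold change 0.64 ± 0.09 SE, adjusted p = 0.00124). All 5 probe sets of Ctsb differed in the same direction, by 0.62 to 0.92 for the 4 that stood above the median level on all arrays and by 0.20 for the dimmest, with which the call was lost (adjusted p = 0.289).

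Ctsd, the aspartic protease of the lysosome, also stood higher in every tumour than in any control. At 11 months the Ctsd levels were 10.76 and 10.69 in controls and 11.17, 10.84 and 11.69 in tumours, and at 14 months 10.53, 10.45 and 10.77 and 12.10, 11.67, 11.83, 11.24 and 11.27. The lowest tumour, KO_tumor_11M replicate 2 at 10.84, lay just above the highest control at 10.77, while the 14-month tumours spread from 11.24 to 12.10. The mean was 11.48 ± 0.41 over the 8 tumours (mean ± SD) against 10.64 ± 0.14 over the 5 controls (log2 fold change 0.77 ± 0.18 SE, adjusted p = 0.0129). Without control_liver_11M replicate 2 the value was 0.76 with an adjusted p = 0.0554, and without both nearly identical controls the call was lost as well.

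Ctsc, the dipeptidyl peptidase that activates granule serine proteases, rose with the ages combined. The control livers gave 10.90 and 10.87 at 11 months and 10.90, 11.02 and 10.97 at 14 months, against 11.83, 11.60 and 12.07 and 11.47, 11.38, 10.98, 11.29 and 10.67 in the tumours of these ages. At 11 months the 3 tumours lay far above both controls, while at 14 months KO_tumor_14M replicate 5 lay below every control and KO_tumor_14M replicate 3 within their range. The ages combined gave a log2 fold change 0.57 ± 0.14 SE, adjusted p = 0.0163. The difference between the ages was -0.75 (unadjusted p = 0.021, adjusted p = 0.999), so a change with age was not shown. The call was lost without control_liver_11M replicate 1 or 2 (0.57 and 0.58, adjusted p from 0.0577 to 0.0627), without both nearly identical controls, with no age term and with the mean of its probe sets.

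Ctsg, a serine protease of neutrophil and mast cell granules, was the cathepsin that fell. Ctsg was measured at 4.84 and 4.87 in controls and 4.59, 4.64 and 4.52 in tumours at 11 months, and at 5.0, 4.85 and 5.26 and 4.60, 4.54, 4.62, 4.68 and 4.72 at 14 months. All tumours lay below all controls. The signal was dim: on 12 of the 13 arrays it was under 5.196, the median of the probe set means, and expression above background was not shown. The fit gave a log2 fold change -0.34 ± 0.08 SE, adjusted p = 0.0141, and without control_liver_11M replicate 2 the change was -0.33 with an adjusted p = 0.0584.

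**Figure D2:**
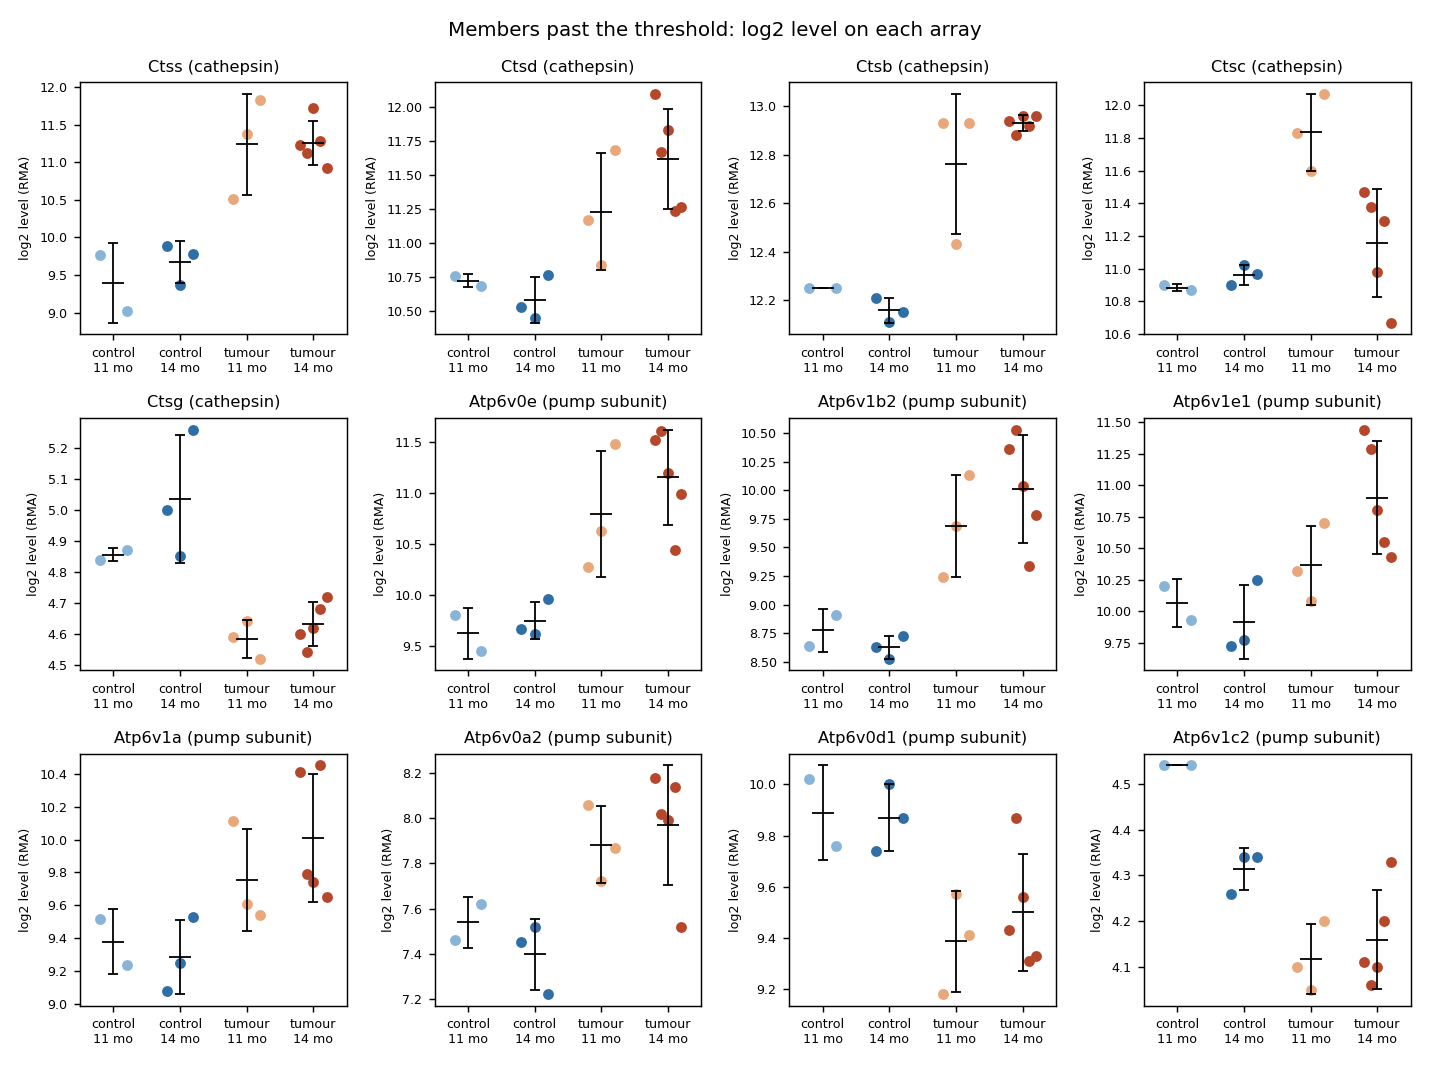
Log2 level on each array for the 12 members past the threshold, by group and age; points are arrays, the black mark is the group mean and bars are 1 SD, and each panel has its own vertical scale that does not start at 0. Ctss, Ctsb, Ctsd, Atp6v0e, Atp6v1b2 and Atp6v1a have every tumour above every control, and Ctsg every tumour below.

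Among the cathepsins not past the threshold, Ctsl, Ctsz and Ctsa had 7 of 8 tumours above all controls. Ctsl, a major cysteine protease of the lysosome, was at 13.50 ± 0.57 over the 8 tumours (mean ± SD) against 12.78 ± 0.13 over the 5 controls (log2 fold change 0.68 ± 0.26 SE, adjusted p = 0.0893). Its 14-month tumours gave 14.16, 14.09, 13.62, 12.40 and 13.68, and KO_tumor_14M replicate 4 lay below all controls while the other 7 tumours lay above them. Without that tumour Ctsl passed (0.83, adjusted p = 0.00274). Ctsz, a carboxypeptidase of the same family, was at 12.71 ± 0.62 over the 8 tumours (mean ± SD) against 11.96 ± 0.20 over the 5 controls (log2 fold change 0.68 ± 0.25 SE, adjusted p = 0.076), with 7 of 8 tumours above all controls and KO_tumor_11M replicate 2 below them at 11.44. Ctsa, which protects lysosomal galactosidase and sialidase, was at 10.55 ± 0.40 over the 8 tumours (mean ± SD) against 9.95 ± 0.20 over the 5 controls (log2 fold change 0.59 ± 0.20 SE, adjusted p = 0.0556), and again KO_tumor_11M replicate 2, at 9.77, was the tumour within the control range. Without that tumour both passed, Ctsz at 0.89 (adjusted p = 0.00963) and Ctsa at 0.76 (adjusted p = 0.00669). For Ctsl, Ctsz and Ctsa this happened in 1 of the 13 fits that each left out 1 array. The tumour left out was the lowest of the 8 for that gene, so passing without it does not show a rise. Ctsk, known as the collagenase of osteoclasts, reached 7.33 in KO_tumor_11M replicate 3 and 7.30 in KO_tumor_14M replicate 3, against 5.53 to 6.01 in controls and 5.73 to 6.54 in the other tumours (log2 fold change 0.62 ± 0.28 SE, adjusted p = 0.14).

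The other measured cathepsins showed small or uneven differences. Ctsh, an aminopeptidase, had a log2 fold change of -0.12, Ctsf one of 0.05 and Ctso one of 0.18, none past the threshold. Ctso spread more among tumours (9.24 to 10.97) than among controls (9.66 to 9.92), with 4 tumours above all controls and 2 below. Ctsw, a cathepsin of cytotoxic lymphocytes, stood at 5.35 to 6.92 in tumours and 5.76 to 6.25 in controls (0.27, adjusted p = 0.285). Ctse, an aspartic protease of endosomes, varied most: controls gave 10.04 and 6.72 at 11 months and 8.73, 10.70 and 10.29 at 14 months, and tumours 10.27, 9.89 and 11.31 and 9.43, 11.65, 10.03, 8.26 and 9.50. Its groups overlapped widely, with control_liver_11M replicate 2 the lowest array, and its second probe set differed by -0.03 where the first differed by 0.99 (adjusted p = 0.305).

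The 8 placental cathepsins were near the floor of the scale. Cts3, Cts6, Cts7, Cts8, Ctsj, Ctsm, Ctsq and Ctsr lay below 5.196 on all 13 arrays, none was past the threshold, and none was shown to be above background. Ctsj stood at 4.64 in KO_tumor_11M replicate 2 and 4.39 in KO_tumor_14M replicate 1, against 2.64 to 3.08 on the other 11 arrays. These genes are close copies of each other, so a probe set may pick up more than 1 of them.

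In the pump, the membrane sector V0 moved in both directions. Atp6v0e, the small e1 subunit of V0, had the largest rise of the pump genes. At 11 months the Atp6v0e levels were 9.80 and 9.45 in controls and 10.27, 10.63 and 11.48 in tumours, and at 14 months 9.67, 9.62 and 9.96 and 11.52, 11.61, 11.20, 10.44 and 10.99. All tumours exceeded all controls, with KO_tumor_11M replicate 1 and KO_tumor_14M replicate 4 the lowest of the 8. The level was 11.02 ± 0.52 over the 8 tumours (mean ± SD) against 9.70 ± 0.19 over the 5 controls (log2 fold change 1.29 ± 0.24 SE, adjusted p = 0.00446), a 2.44-fold rise. Atp6v0e was called in each of the 25 settings, but it has 1 probe set, so those on probe set choice left its levels unchanged.

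Atp6v0a2, an a subunit of V0 that lies in the proton path, rose with a smaller size. The control livers gave 7.46 and 7.62 at 11 months and 7.45, 7.52 and 7.22 at 14 months, against 8.06, 7.72 and 7.87 and 8.18, 8.02, 7.99, 8.14 and 7.52 in the tumours of these ages. In this gene 7 of 8 tumours lay above all controls, and KO_tumor_14M replicate 5 lay among them (log2 fold change 0.46 ± 0.12 SE, adjusted p = 0.0236). Its 3 probe sets differed by 0.46 to 0.99. The call was lost without control_liver_11M replicate 1 or 2 or control_liver_14M replicate 3 (0.42 to 0.50, adjusted p from 0.0555 to 0.0974), and also without the 3 tumours that stand apart.

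Atp6v0d1, the widely expressed d subunit that couples V0 to the rotor, fell. Atp6v0d1 was measured at 10.02 and 9.76 in controls and 9.18, 9.57 and 9.41 in tumours at 11 months, and at 9.74, 10 and 9.87 and 9.43, 9.87, 9.56, 9.31 and 9.33 at 14 months. Of the tumours, 7 lay below all controls and KO_tumor_14M replicate 2 lay within their range (log2 fold change -0.43 ± 0.12 SE, adjusted p = 0.0249). Without control_liver_11M replicate 1 or control_liver_14M replicate 2 it was no longer past the threshold (-0.40 to -0.37, adjusted p from 0.0605 to 0.114), and the same held without the 3 tumours that stand apart. Its counterpart Atp6v0d2, the d subunit of osteoclasts, macrophages and some epithelia, split the controls: the nearly identical pair gave 7.77 and 7.76, the remaining 3 gave 4.92 to 5.18. The tumours lay between 4.86 and 6.99 (log2 fold change -0.45 ± 0.63 SE, adjusted p = 0.632), so the control spread exceeded the difference.

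Of the remaining V0 genes, Atp6v0a1 and Atp6v0b, the c'' subunit, were not past the threshold at -0.28 and 0.30. In Atp6v0b 7 of 8 tumours lay above all controls (adjusted p = 0.0832). Of the 13 fits that each left out 1 array it passed in 1 (0.37, adjusted p = 0.0346). That fit left out KO_tumor_11M replicate 2, its lowest tumour, so passing there does not show a rise. Atp6v0e2, a second e subunit, stood at 0.33 (adjusted p = 0.37). Atp6v0a4, the kidney a subunit, lay at 2.82 to 3.49, and expression above background was not shown.

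In the cytosolic sector V1, 3 genes rose and 1 fell. Atp6v1b2, the B subunit found in most tissues and a partner of the catalytic A subunit, rose most. Atp6v1b2 was measured at 8.64 and 8.91 in controls and 9.24, 9.69 and 10.13 in tumours at 11 months, and at 8.63, 8.53 and 8.73 and 10.36, 10.53, 10.04, 9.34 and 9.78 at 14 months. No tumour overlapped a control, and KO_tumor_11M replicate 1 and KO_tumor_14M replicate 4 were the lowest 2 tumours. The level was 9.89 ± 0.46 over the 8 tumours (mean ± SD) against 8.69 ± 0.14 over the 5 controls (log2 fold change 1.14 ± 0.21 SE, adjusted p = 0.00414), a 2.21-fold rise. Of its 4 probe sets the 2 above the median level on all arrays differed by 1.14 and 1.12, while the 2 that lay below it on every array differed by -0.03 and -0.16.

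Atp6v1a, the catalytic A subunit, rose and was near the threshold. At 11 months the Atp6v1a levels were 9.52 and 9.24 in controls and 10.11, 9.61 and 9.54 in tumours, and at 14 months 9.08, 9.25 and 9.53 and 10.41, 9.79, 9.74, 10.45 and 9.65. The lowest tumour, KO_tumor_11M replicate 3 at 9.54, lay just above the highest control at 9.53, while KO_tumor_14M replicates 1 and 4 were the highest (log2 fold change 0.55 ± 0.18 SE, adjusted p = 0.0494). Without any 1 of 11 arrays, that is each array except KO_tumor_14M replicates 3 and 5, the call was lost (0.46 to 0.62, adjusted p from 0.052 to 0.166).

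Atp6v1e1, a stalk subunit, rose with the ages combined. The control livers gave 10.20 and 9.93 at 11 months and 9.73, 9.77 and 10.25 at 14 months, against 10.32, 10.08 and 10.70 and 11.44, 11.29, 10.80, 10.55 and 10.43 in the tumours of these ages. Here KO_tumor_11M replicate 2 lay within the controls and the other 7 tumours above them (log2 fold change 0.64 ± 0.20 SE, adjusted p = 0.0413). The call was lost without any 1 of 8 arrays (0.56 to 0.71, adjusted p from 0.0533 to 0.142), namely both 11-month controls, control_liver_14M replicates 1 and 2, KO_tumor_11M replicates 1 and 3 and KO_tumor_14M replicates 2 and 3. With the mean of its 4 probe sets, of which 1 stood above the median level on all arrays, it was lost too.

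Atp6v1c2, a C subunit of kidney and lung, fell by 0.29 but its signal was dim, at 4.05 to 4.54 on the 13 arrays and always under 5.196, so expression above background was not shown. Atp6v1c2 was measured at 4.54 and 4.54 in controls and 4.10, 4.05 and 4.20 in tumours at 11 months, and at 4.26, 4.34 and 4.34 and 4.11, 4.06, 4.10, 4.20 and 4.33 at 14 months. Of the tumours 7 lay below all controls (log2 fold change -0.29 ± 0.07 SE, adjusted p = 0.0168), and without control_liver_11M replicate 1 or 2 the call was lost (adjusted p from 0.0594 to 0.0614).

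Among the V1 genes not past the threshold, Atp6v1c1 (0.44) had 6 tumours above all controls and Atp6v1d (0.29), of the rotor, had 4. Atp6v1f (0.12), Atp6v1h (0.00), the regulatory H subunit, and Atp6v1g1 (0.02) had tumours on both sides of the controls. The 2 forms restricted to certain tissues, Atp6v1e2 (testis) and Atp6v1g2 (brain), stood at -0.15 and -0.10. Atp6v1b1, the B subunit of kidney, lay at 3.63 to 4.39, also dim (-0.31, adjusted p = 0.0513).

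**Figure D3:**
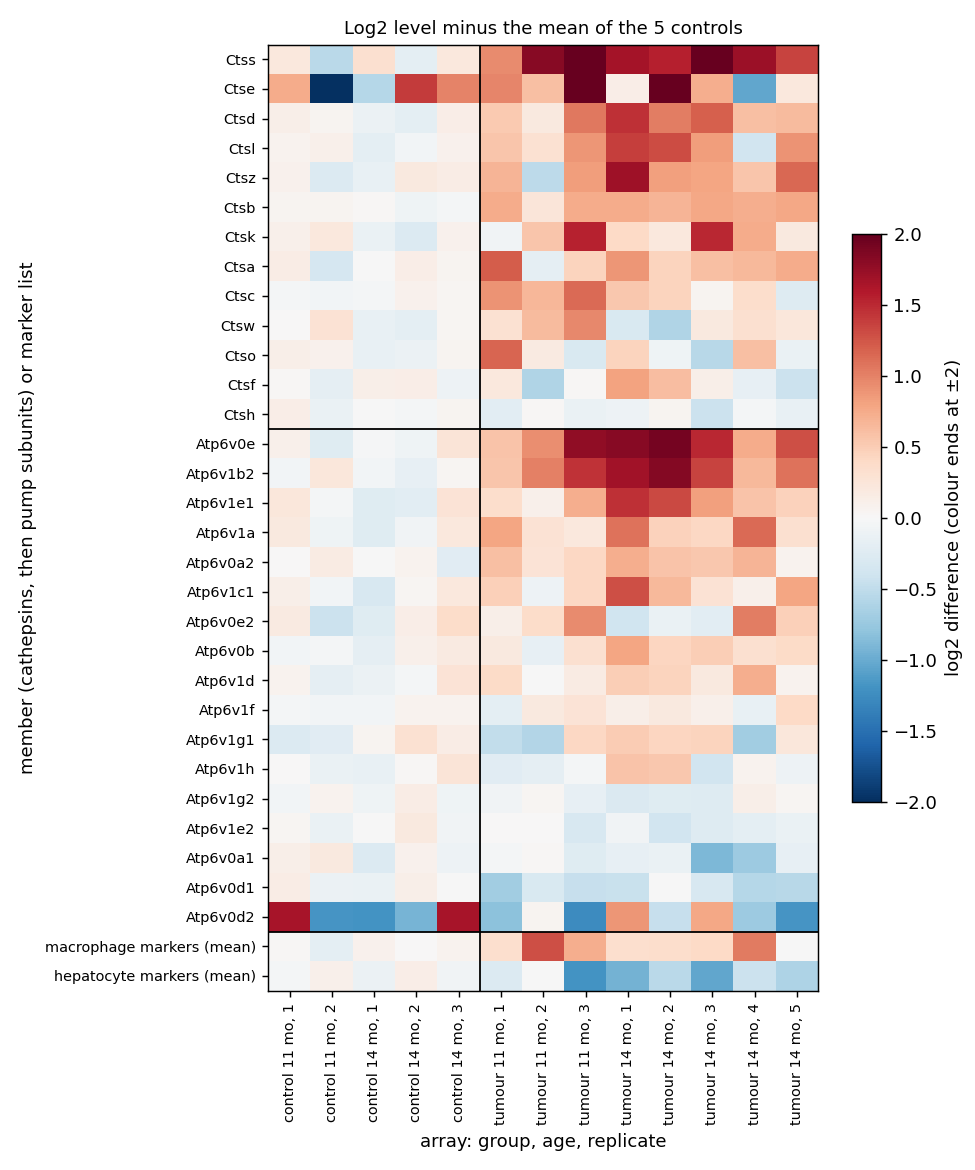
Log2 level minus the mean of the 5 controls, for the 30 members with more than 1 array above the median level (rows; cathepsins above, pump subunits below) and for the mean of the macrophage and hepatocyte marker lists, on each of the 13 arrays (columns); the colour scale ends at ±2. Ctss, Atp6v0e and Atp6v1b2 are red in all 8 tumours, Atp6v0d2 is red in 2 of the 5 controls, and the macrophage markers are reddest in tumour 11 mo, 2.

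The tumours differed in how many members left the control range. KO_tumor_14M replicate 1 had 11 of 22 cathepsins and 12 of 20 pump subunits above the highest control, the most pump subunits of any tumour, and KO_tumor_14M replicate 2 had 11. KO_tumor_11M replicate 2 had 9 cathepsins and 5 pump subunits above, the fewest pump subunits of any tumour. KO_tumor_14M replicate 5 had 7 cathepsins above, as did KO_tumor_14M replicate 3, the fewest of the tumours. For all genes the share above the highest control was 21.5% to 30.3% in the 8 tumours, against 31.8% to 50% of cathepsins and 25% to 60% of pump subunits. The share below the lowest control was 30.6% to 36.4% of all genes, 13.6% to 27.3% of cathepsins and 10% to 30% of pump subunits.

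Taken by age, Ctss was called of the 42 members at 11 months, where 1.92% of all genes were called, 1.31% higher and 0.61% lower. At 14 months 8 members were higher (Ctsb, Ctsd, Ctss, Atp6v0a2, Atp6v0e, Atp6v1a, Atp6v1b2 and Atp6v1e1) and 1 was lower (Ctsg), against 8.37% and 6.88% of all genes (15.3% in either direction). These 9 came to 3 without control_liver_14M replicate 1, 4 without control_liver_14M replicate 2 and 3 without the nearly identical controls. With KO_tumor_14M replicates 1 and 2 averaged the count was 7. The 11-month comparison has 3 tumours and 2 controls and standard errors that are larger, for example 0.37 against 0.30 for Atp6v0e, so a call at 14 months and none at 11 months does not show a difference. The difference itself was tested: 0 of 42 members and 0% of all genes passed in limma. At an unadjusted p under 0.05 there was 1 member, Ctsc, and 544 genes in all, which is 2.99%. Atp6v0e stood at 1.17 at 11 months and 1.40 at 14 months, and Atp6v1b2 at 0.91 and 1.38.

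**Figure D4:**
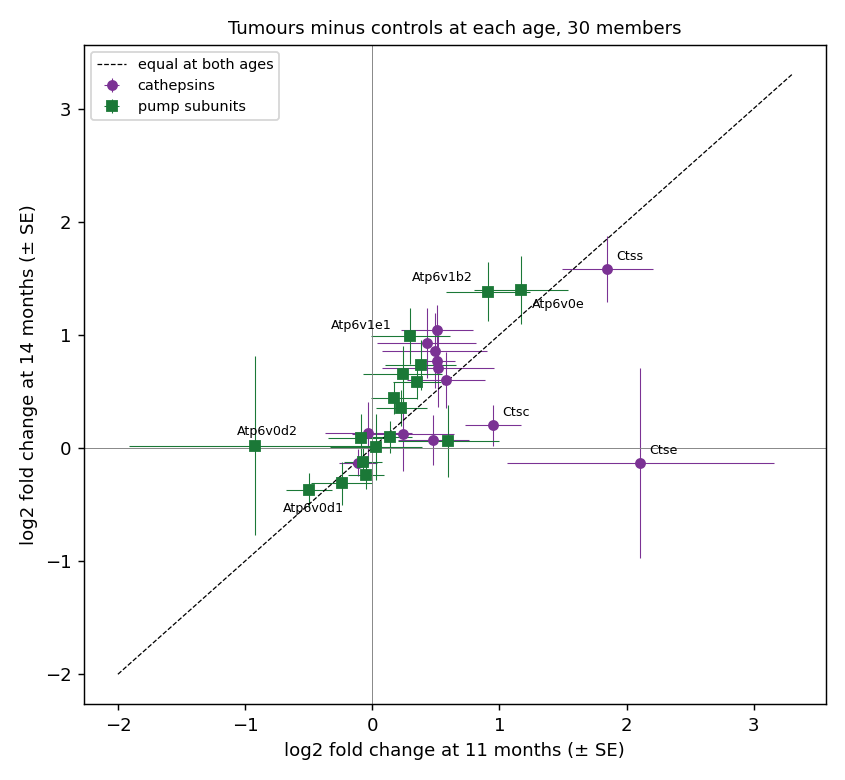
Log2 fold change of tumours over controls at 11 months (horizontal) and at 14 months (vertical) for the 30 members with more than 1 array above the median level, with bars of 1 standard error and a dashed line of equal values. Ctss lies at 1.85 and 1.58, Atp6v0e at 1.17 and 1.40, Atp6v1b2 at 0.91 and 1.38, and Ctsc at 0.95 and 0.20. Atp6v0e and Atp6v1b2 were not past the threshold at 11 months. Ctse, at 2.11 and -0.13, has the widest bars.

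A gene's probe sets can read different stretches of its transcripts, and 22 members have more than 1. In Ctsh, Ctsz, Atp6v0a1, Atp6v0a2, Atp6v0b, Atp6v1a, Atp6v1c1 and Atp6v1d every probe set stood above the median level on all arrays and differed in 1 direction within the gene, for example by 0.47 to 0.68 in Ctsz and by 0.44 to 0.56 in Atp6v1c1. Ctsa was split: its second probe set differed by -0.14 and its first by 0.59. Probe sets whose identifiers end in _s_at, which can pick up related transcripts, represent Ctse, Atp6v0b and Atp6v1e1 here.

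**Figure D5:**
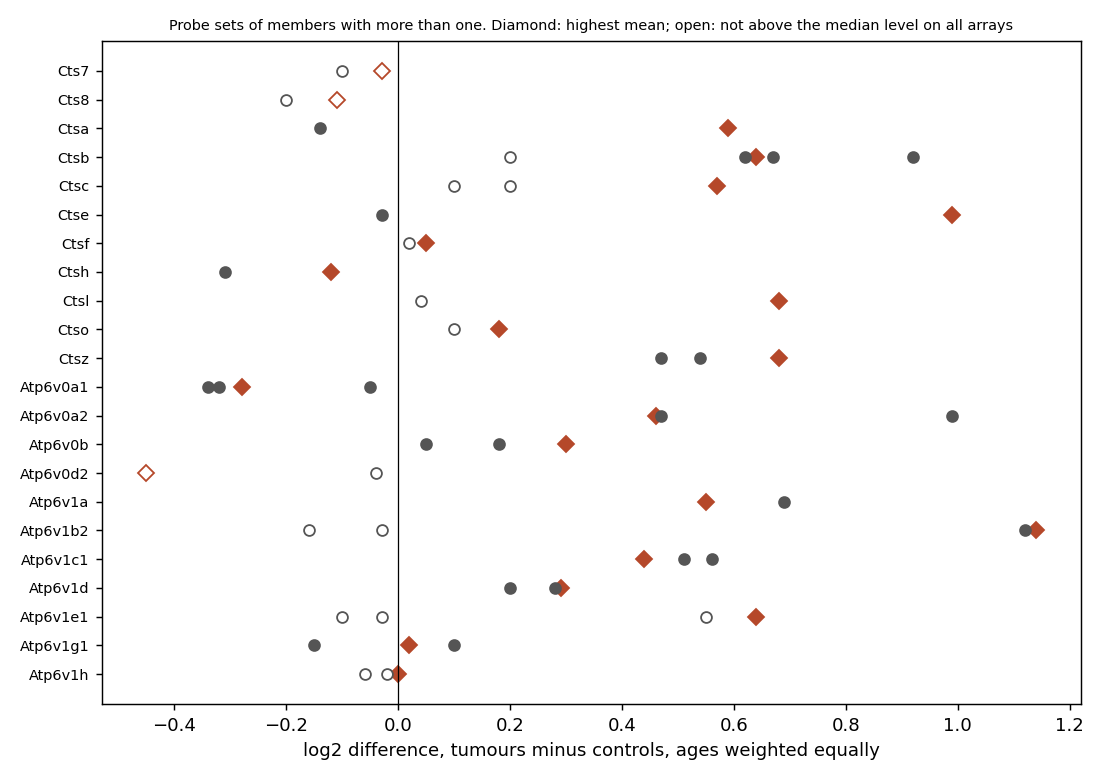
Difference of mean log2 level between tumours and controls, ages weighted equally, for each probe set of the 22 members with more than 1; diamonds are the probe sets with the highest mean, and open symbols are those not above the median level on all 13 arrays. The filled symbols of Atp6v1b2 lie together at 1.12 and 1.14 while its open ones lie at -0.16 and -0.03, and those of Ctsa lie on both sides of 0.

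Cystatins and serpins were read from a list drawn up for inhibitors of the cathepsins, with 15 measured genes, of which 4 were higher and 0 lower. Whether each listed gene acts on a cathepsin was not tested. Cstb, the cytosolic cystatin B that binds cysteine cathepsins, rose most, from 10.38 ± 0.21 in the 5 controls to 12.43 ± 0.49 in the 8 tumours, which is 2.02 on the log2 scale (adjusted p = 0.000391 in limma), and no tumour overlapped a control. The serpins Serpinb6a and Serpinb9 rose by 1.70 and 1.16, and the secreted cystatin Cst3 by 0.39. The lowest value in the list, -0.92 for the serpin Serpina3n, was not past the threshold. The median of the list was 0.04, and 10 of its genes had at most 1 array above the median level.

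The other lysosomal enzymes were read from a second list. Of 35 hydrolases 6 were higher and 0 lower (median 0.15, against -0.05 over all genes): the glucuronidase Gusb rose by 1.86, the galactosidase Gla by 1.60, the hexosaminidase Hexa by 0.94 and legumain, Lgmn, which processes cathepsin precursors, by 0.73 (10.09 ± 0.25 against 9.37 ± 0.15, adjusted p = 0.00313). The others, named after their values were seen, were Acp5 (0.56) and Asah1 (0.43). The lowest value among the hydrolases, -0.50 for Ggh, was not past the threshold. Of 30 lysosomal activators and membrane proteins 6 were higher and 5 lower (median -0.14). The phagosomal metal carrier Slc11a1 rose by 1.81, Laptm4b by 1.14 and the peptide carrier Slc15a3 by 0.86, while the amino acid carrier Slc36a1 fell by 0.80. The other 4 that fell, named after their values were seen, were Hgsnat, Slc17a5, Ostm1 and Lamp2 (-0.41, adjusted p = 0.0497), and Lamp1, likewise named, was not past the threshold (-0.19).

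Partners and assembly factors of the pump were divided. Of 14 measured 3 were higher and 2 lower (median 0.05). Tcirg1, which encodes the a3 subunit of V0 and does not carry an Atp6v symbol, rose by 0.81 (8.91 ± 0.60 in tumours and 8.01 ± 0.11 in controls, adjusted p = 0.0347), the accessory subunit Atp6ap1 by 0.45 and Ncoa7, which binds the pump, by 1.88. Vma21, which assists assembly of V0 in the endoplasmic reticulum, fell by 0.69 (8.22 ± 0.23 against 8.94 ± 0.13, adjusted p = 0.00186), with all tumours below all controls, and Meak7 fell by 0.46.

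In the sorting route, 4 of 22 genes were higher and 1 lower (median 0.12). Both mannose 6-phosphate receptors rose, M6pr by 0.55 and Igf2r by 0.48, as did the adaptor subunit Ap1s1 (0.64) and the late endosomal GTPase Rab7 (0.30), while the sorting receptor Sort1 fell by 0.94 (adjusted p = 0.00203). Of 27 genes of the TFEB family and the lysosomal arm of mTORC1, 3 were higher and 0 lower (median 0.07). These were the GTPase Rragd (4.71), the scaffold subunit Lamtor3 (0.74) and the leucine sensor Sesn2 (0.46). The lowest value in that list, -0.60 for Fnip2, was not past the threshold. The factors themselves, named after their values were seen, were not past the threshold at -0.04 for Tfeb, 0.22 for Tfe3, -0.04 for Mitf and 1.81 for Tfec (adjusted p = 0.0714).

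Markers of macrophages and Kupffer cells were read from a further list. Of 27 macrophage and Kupffer cell markers 16 were higher and 1 lower (median 1.25), and all 8 tumours lay above all controls for 15. The mean level of the list was 7.60 to 8.89 in tumours and 7.41 to 7.70 in controls. Cd14 rose by 4.31, Ccr2 by 2.27, Gpnmb by 2.01 and Cd68, itself a lysosomal membrane protein of macrophages, by 1.94, while Cd163 fell by 4.07 and Adgre1 was not past the threshold (0.91, adjusted p = 0.0588). Markers of resident Kupffer cells looked at after their values were seen did not pass either: Clec4f stood at -2.16 (adjusted p = 0.0624) and Timd4 at -1.87 (adjusted p = 0.0619). Vsig4 (-1.86), Cd5l (-1.28) and Marco (-1.09), likewise named, also did not pass. The list mean joins such markers with those that rose, so it is not a measure of macrophage content alone. The highest macrophage mean, 8.89, was that of KO_tumor_11M replicate 2, where Ctss was 11.38, Ctsb 12.43 and Ctsd 10.84. The lowest, 7.60, was that of KO_tumor_14M replicate 5, where Ctss was 10.92, Ctsb 12.96 and Ctsd 11.27. Ctss itself was highest, 11.83, in KO_tumor_11M replicate 3 (list mean 8.33). It was lowest among tumours, 10.51, in KO_tumor_11M replicate 1 (list mean 7.95). The part of macrophage content in the rise of Ctss or of any other member was not tested.

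Markers of hepatocytes and of other cells were read in the same way. Of 13 hepatocyte markers 0 were higher and 3 lower, Asgr2 by -1.53, Asgr1 by -1.12 and Fah by -0.84, with Alb (0.00) and Apoa1 (-0.59) not past the threshold. The list's mean was 11.75 to 12.94 in tumours and 12.83 to 13.08 in controls. Neutrophil markers had 3 of 11 higher and 0 lower, S100a9 by 2.72, S100a8 by 2.66 and Csf3r by 0.59. The other 8 were not past the threshold, the median of the list was -0.06, and 6 of its genes had at most 1 array above the median level. Stellate cell and fibroblast markers had 4 of 13 higher, Col1a1 (3.14), Col3a1 (2.62), Col1a2 (2.21) and Pdgfrb (1.33), and 2 lower (median 0.37). The 2 lower, named after their values were seen, were Lrat (-0.88) and Hand2 (-0.72), and Acta2 was not past the threshold (0.73). Dendritic cell markers had 2 of 8 higher (Itgax and Batf3, the latter by 1.43), with Flt3 not past the threshold (0.14). Endothelial markers had 2 of 11 higher (Lyve1 2.24 and Pecam1 0.92), with Cdh5 not past the threshold (0.50). In T and natural killer cell markers 1 of 15 was higher (Klrd1) and 1 lower (Prf1), with Cd3e (0.14) and Cd3d (0.55) not past the threshold. Of 9 B cell, 8 mast cell, 6 cholangiocyte and 3 placental markers 0 were called, against 20.1% of all genes, and of 10 kidney and osteoclast markers 1 was lower (Aqp6). The part of these cells in the members' levels was not tested.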

How the data were processed

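RNA from 13 samples was measured on 1 array each. The deposited values are log2 levels per probe set that the authors made by RMA in Partek software, per the submitters' processing notes. Software version and background setting: not given in the sources used here. Of 45101 probe sets 34945 name 1 gene, which gave 18193 genes, each read by its brightest probe set on average. The means of the 4 groups were fitted together with limma 3.58.1 (lmFit and eBayes) in R 4.3.3, with equal weight for both ages. The threshold was a Benjamini-Hochberg adjusted p of 0.05 across every gene. The model was tested on simulated data. Values on every array are given for members past the threshold (at most 10 per class). From each pathway list up to 4 called genes with the greatest change are named, plus the greatest opposite one. From each marker list up to 4 called genes are named, and from some of these lists the first 2 genes as well. Exceptions are marked in the text. The members and lists were chosen with earlier results of these data known. Low level means at most 1 array above 5.196, the median of the probe set means. Alternatives covered probe set choice, normalisation, array weights, the age term, thresholds, and leaving out arrays. Promoters came from RefSeq (GRCm38.p6).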

Additional observations from a re-analysis of the deposited data

Results flagged for a closer look

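In the 5 tumours at 14 months, Atp6v1g1, a stalk subunit of the pump, stood at 9.68 in KO_tumor_14M replicate 4, while the other 4 lay between 10.60 and 10.89. The gap to the nearest of these, as a share of the whole range, was 0.76, above Dixon's critical value of 0.71 for 5 samples. It was the 1 such case among the 32 members tested, and chance flags about 1 in 20 groups.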

How the results depend on the processing

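Ctss and Atp6v0e have 1 probe set each, so the settings on probe set choice left their levels unchanged and could not test them in this way. Of 12 members called, Ctss and Atp6v0e passed under each of the 25 settings run on single members. Ctsb, with 5 probe sets, and Atp6v1b2, with 4, passed in all but the probe set with the lowest mean. With that probe set 3 cathepsins and 4 pump subunits were called (5 and 7 otherwise) and 5 members at 14 months (9 otherwise), and the sign turned for Atp6v1b2 (-0.16) and Atp6v1e1 (-0.10), whose lowest probe sets lie below the median level on all arrays. At an adjusted p under 0.01 the counts were 2 cathepsins, 2 pump subunits, 0 members at 11 months, 3 at 14 months and 1443 genes in all (3657 otherwise), and at a change of at least 2-fold 1, 2 and, at 14 months, 4, with 1224 genes. With arrays whose titles carry a number alone they were 3, 4, 0 at 11 months, 0 at 14 months and 1759 genes, which has fewer arrays. Without the nearly identical controls they were 2, 2, 0, 3 and 1368, and without the 3 tumours that stand apart 9 cathepsins, 6 members at 11 months and 14 at 14 months, with 5467 genes. At 11 months (1 otherwise) the count was 2 with quantile normalisation repeated, 2 with array weights, 2 with genes above the median level alone and 0 with the arrays compared alone, and at 14 months it was 14 with array weights; the cause was not tested. Leaving out each array in turn gave 2 to 7 cathepsins, 2 to 8 pump subunits, 0 to 3 members at 11 months, 3 to 12 at 14 months, 0 for the difference between ages and 1814 to 4359 genes. Where a group is left with 1 sample, that sample is assumed to vary like the other groups. No paired analysis was possible because the replicate numbers follow accession order and pair no samples.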
